A study of Mus musculus with 96 samples.

Results

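The 6 adipose-labelled libraries, 3 from wild-type and 3 from Scx-/- mice, were taken from the 96 libraries of a multiplexed RNA-seq (MuSeq) experiment by the tissue and genotype in their sample names. Both groups came from mice aged 3 weeks, and the genotype was the only labelled difference between them. Scx encodes Scleraxis, a basic helix-loop-helix transcription factor best known in tendon and ligament progenitors. The experiment compared 16 tissues of both genotypes, with 3 replicates each, to find which tissues change without Scx. MuSeq gives every sample a barcode at the reverse transcription step, pools the samples and prepares them together. The Scx-/- mice lacked Scx in the whole body, and the sources used here do not say which part of the gene the allele lacks. They also do not say whether the replicates were separate animals, so p-values measure the spread between these samples, which may be technical. The comparison covered the 10993 of 41575 genes that had a count in at least 1 of the 6 libraries.

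Adipocytes store triglyceride in lipid droplets and secrete adipokines such as adiponectin (Adipoq) and leptin (Lep). Acinar cells of the exocrine pancreas instead fill zymogen granules with digestive proenzymes, among them chymotrypsinogens, trypsinogens, elastases, carboxypeptidases, lipases and ribonuclease. The pancreas lies along the stomach, spleen and duodenum.

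The label and the transcripts of these libraries did not match. Transcripts of 58 acinar genes, in 5 lists, took 79.1%, 79.0% and 68.4% of all counts in wild-type libraries 1, 2 and 3, and 71.7%, 79.1% and 76.8% in Scx-/- libraries 1, 2 and 3. The genotypes overlapped, with means of 75.5% ± 6.17 for wild-type and 75.9% ± 3.76 for Scx-/- (SD, n = 3 each). In bulk samples fewer cells of a type cannot be told apart from less RNA per cell. Proteases alone took 47.0% to 57.7%, lipases 8.49% to 12.5%, and Reg proteins, secreted lectins of acinar cells, 1.97% to 4.57%. Of the 58 acinar genes, 49 had a count, and 42 had a mean of at least 100 CPM, counts scaled to 1e+06 per library. Colipase (Clps) and the 5 listed Amy2a genes, abundant pancreatic transcripts, were listed at 0 in all 96 libraries, so their zeros say nothing of these samples.

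**Figure D1:**
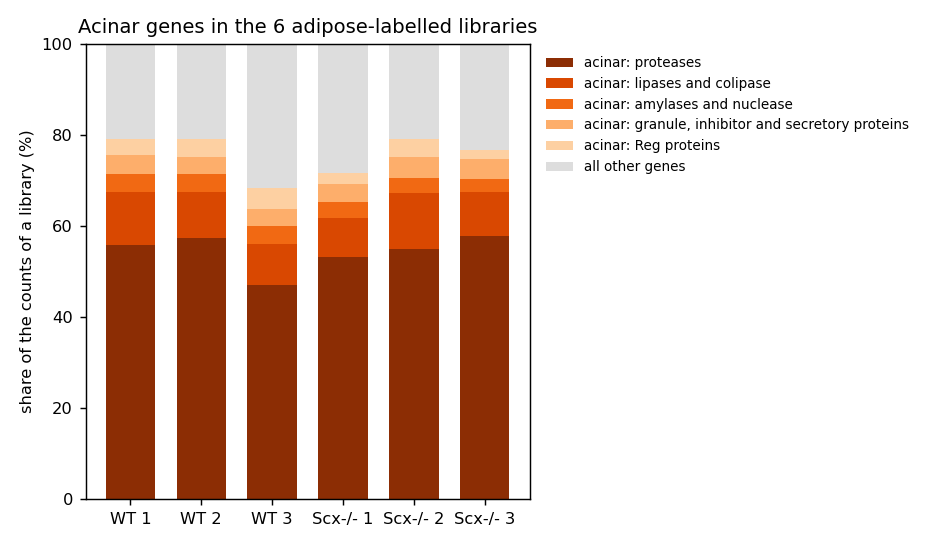
Share of the counts of each adipose-labelled library (%, y axis) taken by the 5 lists of acinar genes and by all other genes, for the 3 wild-type (WT) and 3 Scx-/- libraries. Acinar genes took 68.4% to 79.1% in every library, with proteases the largest block.

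Adipocyte genes were close to absent. The 32 adipocyte genes summed to 0.0371%, 0.0677% and 0.0760% of counts in the wild-type libraries and to 0.0398%, 0.0240% and 0.0432% in the Scx-/- libraries. Adipoq had 1 count, in wild-type library 2, and Lep and resistin (Retn) had none in any of the 6. Fabp4, the fatty acid carrier of fat cells, had 10, 5 and 13 counts in wild-type and 9, 2 and 10 in Scx-/- libraries. Perilipin 1 (Plin1), the main coat protein of the fat cell lipid droplet, had 3 counts, all in Scx-/- library 1. The 18 brown fat genes held at most 0.00896% of counts. In the other 90 libraries adipocyte genes took 0.0641% to 4.33% of counts, and 87 of these 90 were above the highest adipose-labelled library. As acinar genes took most counts of the adipose-labelled libraries, the share of every other gene was lowered there. Outside the acinar genes, wild-type library 2 held 68 adipocyte counts of 21090 and Scx-/- library 2 held 80 of 69776. The vascular-labelled libraries were the highest of the series, at 2.38% to 4.33%. For these reasons the samples are called adipose-labelled throughout, and no tissue name is given to them in its place.

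Acinar proteases were scarce elsewhere in the series. Their median share in the other 90 libraries was 0.0449%, and 7 of them were above 1%. The highest was Scx-/- spleen library 2, at 9.11%, followed by Scx-/- intestine library 1 at 4.54% and Scx-/- spleen library 3 at 4.35%. The other 4 were a Scx-/- stomach, a wild-type intestine and both wild-type spleen libraries 1 and 2, at 1.13% to 2.79%. All 7 libraries above 1% carried a spleen, stomach or intestine label. Other libraries with these labels were far lower, such as wild-type spleen library 3 at 0.00949% and Scx-/- spleen library 1 at 0.00598%. The source of these reads was not tested.

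**Figure D2:**
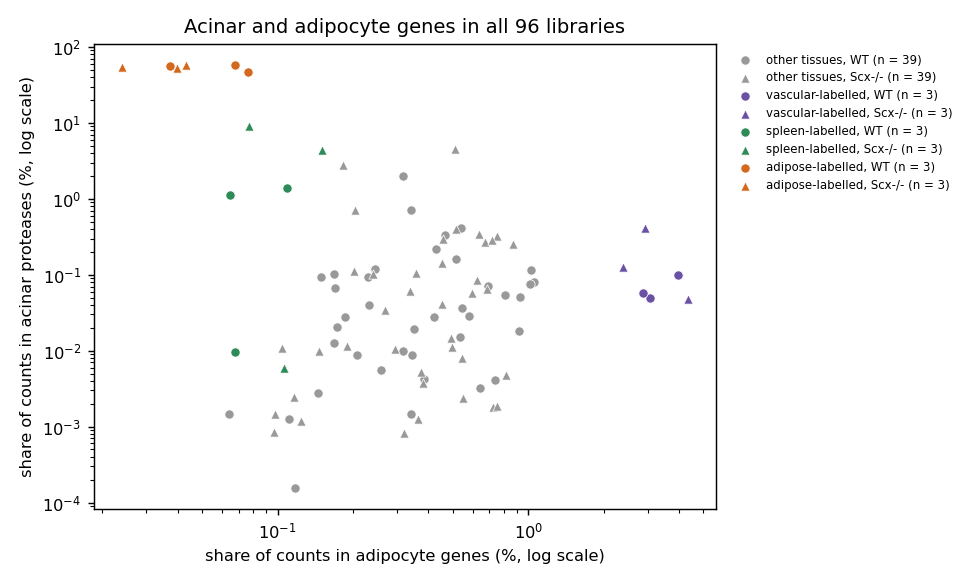
Share of counts in acinar proteases (%, log scale, y axis) against the share in adipocyte genes (%, log scale, x axis) for all 96 libraries, 1 point each, circles for wild-type and triangles for Scx-/-. The 6 adipose-labelled libraries lie alone at the top left, between 47.0% and 57.7% on the y axis, and the vascular-labelled libraries lie at the right.

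The genotypes differed in depth before any gene was compared. The wild-type libraries held 140132, 100469 and 105261 counts and the Scx-/- libraries 439273, 333668 and 498158, with no overlap and a mean 3.68 times as high in Scx-/-. Detected genes numbered 3599, 2808 and 3432 in wild-type and 7585, 5066 and 6749 in Scx-/- libraries, and after every library was thinned to 100469 counts they still did not overlap, at 2808 to 3395 against 3827 to 5518. Depth and complexity therefore cannot be told apart from genotype here. Correlations of log2(CPM + 1) across genes between libraries of 1 genotype were 0.353 to 0.490, a range that overlapped the 0.375 to 0.453 between genotypes. The scaling of the libraries also moved the fold changes. Among the 335 genes with a mean of at least 100 CPM, the median log2 fold change (Scx-/- over wild-type) was 0.51 with TMM factors, 0.04 with RLE factors and -0.07 with library totals. Fold changes of abundant genes are therefore read against that median.

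Scx itself had 0 counts in all 6 libraries. Zero of 345862 pooled wild-type counts allows a level of up to 8.67 CPM, and 0 of 1271099 Scx-/- counts up to 2.36 CPM, from counting error alone. The gene (chr15:76457452-76459458, plus strand, mm10) thus gave no check of the genotype labels in these samples.

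With edgeR's quasi-likelihood test and Benjamini-Hochberg adjustment, 1 of 10993 genes (0.0091%) had an adjusted p under 0.05. An unadjusted p under 0.05 was reached by 371 genes with edgeR and by 248 with DESeq2, which called 0 genes after adjustment. At the thresholds of the study, an unadjusted p under 0.05 and a change of more than 2-fold, 234 genes were higher (2.13% of those tested) and 122 lower (1.11%) in Scx-/-. That balance depended on scaling, with 90 higher of 293 under RLE and 63 higher of 321 under library totals. Of the 356 genes, 165 had no count in any wild-type library and 110 none in any Scx-/- library. Only 27 of the 356 reached 100 CPM, all of them higher in Scx-/-. In simulated counts the same thresholds called 273 of 10793 unchanged genes.

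The gene that passed was Cpb1 (chr3:20248264-20275733, minus strand), pancreatic carboxypeptidase B, which removes basic residues from the ends of digested peptides. Its level was 22764, 39266 and 22316 CPM in the wild-type and 37127, 49175 and 39496 CPM in the Scx-/- libraries. Wild-type library 2 lay above Scx-/- library 1, so the genotypes overlapped in CPM. Cpb1 rose by 1.15 ± 0.22 on the log2 scale (SE, n = 3 and 3) with an adjusted p of 0.0028 in edgeR's quasi-likelihood test. The call was lost with RLE factors (log2 fold change 0.69), with library totals (0.58) and with DESeq2, where adjusted p-values were 0.694, 0.0933 and 0.998. It was also lost without Scx-/- library 2 or library 3, at adjusted p 0.330 and 0.772, with log2 fold changes of 1.08 and 1.15. It was further lost with filterByExpr, with libraries thinned to 1 depth and with the replicate number as a block. The log2 fold changes there were 0.79, 0.88 and 1.20. Over all alternatives the adjusted p ran from 0.000374 to 0.998.

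Since all acinar genes share the scaling of a library, their levels relative to each other were also described, as shares of the summed counts of the 58 acinar genes in the same library. This measure needs no scaling factor, but it shows only unequal change. By it, 6 of the 42 acinar genes with at least 100 CPM did not overlap and were higher in Scx-/-, and 9 did not overlap and were lower. Against all 335 genes at that level, expressed in the same way, 6.57% did not overlap and were higher and 9.55% lower. In CPM, 5 of the 42 were higher and 5 lower without overlap, where 7.46% and 8.06% of the 335 were. The share of acinar counts was chosen after the values were seen, and no test was made on it.

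Among the genes higher on this scale, Cpb1 took 2.88%, 4.97% and 3.26% of acinar counts in wild-type and 5.18%, 6.22% and 5.14% in Scx-/- libraries. Every Scx-/- library thus lay above every wild-type library, although the nearest pair differed by little. Ctrl (chr8:105932003-105933862, minus strand), a chymotrypsin-like protease, took 2.39%, 2.71% and 3.09% against 3.30%, 3.89% and 3.56%. The means of Cpb1 and Ctrl were 1.49 and 1.31 times as high in Scx-/-. Klk1 (chr7:44225360-44229618, plus strand), tissue kallikrein, which releases kinins, took 0.690%, 0.493% and 0.597% against 0.808%, 0.987% and 0.911%. Gp2 (chr7:119442537-119459285, minus strand), the main membrane glycoprotein of the zymogen granule, took 0.417%, 0.414% and 0.263% against 0.467%, 0.618% and 0.652%. Pnliprp2, a lipase active on galactolipids and phospholipids, did not overlap either, at 0.451% to 0.676% against 0.766% to 0.942%. In the fit across all genes the log2 fold changes of Ctrl, Klk1 and Gp2 were 1.00, 1.17 and 1.21, with adjusted p-values of 0.0776, 0.365 and 0.539 in edgeR's test, so none of these passed. Without wild-type library 1 all did, at adjusted p-values of 0.00500, 0.00411 and 0.0170 in edgeR's test, and over the alternatives the highest was 0.998 for each.

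The genes lower on the same scale included several trypsinogens. Prss2, anionic trypsinogen (chr6:41521787-41525079, plus strand), took 6.763%, 6.0003% and 4.446% of acinar counts in wild-type and 4.024%, 3.433% and 3.949% in Scx-/- libraries. Try4 (chr6:41302269-41305532, plus strand) took 6.87%, 7.27% and 6.25% against 4.22%, 5.67% and 5.95%, and Try5 and Try10 did not overlap in the same direction. Several trypsinogen genes are similar copies on chromosome 6, so the split of reads between those copies is uncertain. Another trypsinogen gene, 2210010C04Rik, lay at 6.02% to 6.63% against 6.60% to 7.30% and overlapped. Rnase1 (chr14:51144998-51146785, minus strand), pancreatic ribonuclease, took 4.74%, 4.77% and 5.05% against 4.43%, 3.78% and 3.34%. Pla2g1b (chr5:115466262-115474722, plus strand), secreted pancreatic phospholipase A2, took 0.196%, 0.294% and 0.175% against 0.112%, 0.0489% and 0.0813%, a mean 0.365 times the wild-type mean. Cel, bile salt-dependent lipase, differed by less, at 4.26% to 4.48% against 3.49% to 4.14%, and Reg2 was at 0.0264% to 0.0365% against 0.00444% to 0.0250%. In the fit across all genes the log2 fold change of Pla2g1b was -0.93 with an adjusted p of 0.614 in edgeR's test, and those of Try4 and Rnase1 were 0.22 and 0.23 with TMM factors but -0.24 and -0.22 with RLE factors.

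Ctrc (chr4:141814962-141846359, minus strand), chymotrypsin C, which cleaves trypsinogens, split the Scx-/- libraries. It had 866, 663 and 1091 counts in the wild-type libraries and 69, 1799 and 72 in the Scx-/- libraries, or 0.781%, 0.835% and 1.52% of acinar counts against 0.0219%, 0.682% and 0.0188%. Scx-/- library 2 lay just under the wild-type range, and the other two lay far below it. The log2 fold change was -1.40 ± 1.71 (SE) with an adjusted p of 0.683 in edgeR's test. Without Scx-/- library 2 it was -5.00 with an adjusted p of 1.29e-18, the smallest p over the alternatives for this gene, of which the others that gave one ran from 0.614 to 0.986. In the annotation Ctrc shares its 3′ end with Cela2a (chr4:141814962-141826160, minus strand), pancreatic elastase 2A, so reads of the shared part could not be assigned to either gene with certainty. Cela2a itself took 8.02% to 9.29% of acinar counts in wild-type and 8.50% to 9.85% in Scx-/- libraries, and these overlapped. Scx-/- library 2 also stood apart in Cela1, pancreatic elastase 1, at 4.94% of acinar counts against 6.88% to 9.41% in the other 5 libraries.

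**Figure D3:**
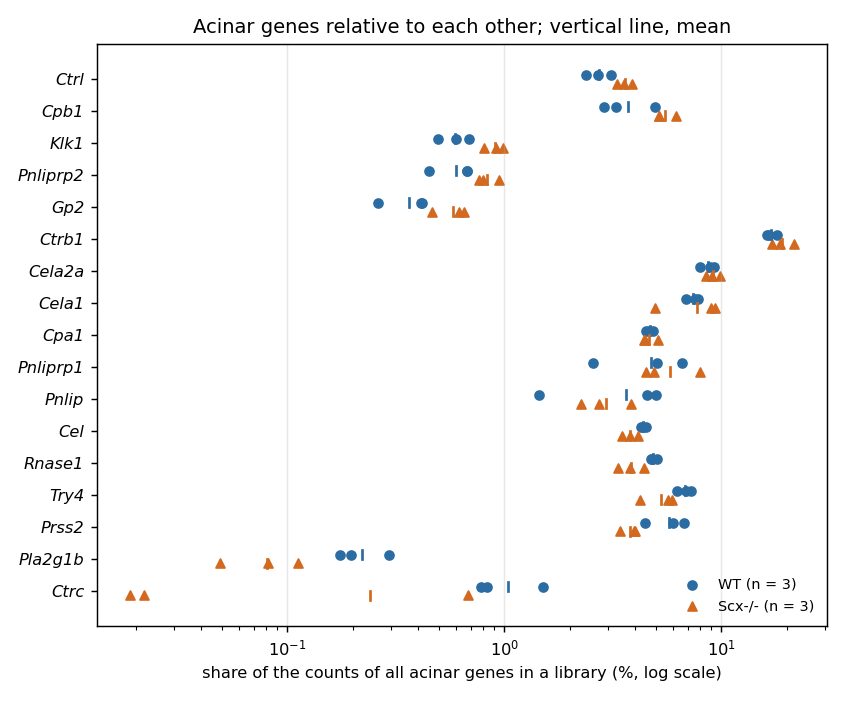
Share of the counts of all 58 acinar genes (%, log scale, x axis) taken by 17 acinar genes (y axis) in each wild-type (WT, circles) and Scx-/- (triangles) library, with the mean of each genotype as a vertical line. The 5 genes at the top lie higher in all Scx-/- libraries, and the bottom 6, from Cel to Ctrc, lower, with 1 Ctrc triangle, library 2, far from the other two.

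Other acinar enzymes overlapped between genotypes. Ctrb1 (chr8:111686519-111691010, minus strand), chymotrypsinogen B1 and the gene with most counts, took 18.001%, 16.2% and 16.7% of acinar counts in wild-type and 21.7%, 17.1% and 18.7% in Scx-/- libraries. Its log2 fold change of 0.73 ± 0.18 (SE) had an adjusted p of 0.0776 in edgeR's test, which was 7.96e-05 without wild-type library 1 and 0.196 to 0.998 in the other alternatives. Cpa1 (chr6:30639218-30645363, plus strand), carboxypeptidase A1, took 4.52% to 4.86% against 4.39% to 5.13%, and its log2 fold change was 0.56 with TMM factors and -0.0027 with library totals. Pnliprp1, a pancreatic lipase-related protein, ranged from 2.57% to 6.60% within wild-type libraries and from 4.52% to 7.95% within Scx-/-. Its adjusted p of 0.0776 in edgeR's test was 9.46e-05 without wild-type library 1, 0.0206 without wild-type library 3 and 0.0702 to 0.998 in the other alternatives. Pnlip, the main pancreatic triglyceride lipase, ranged from 1.44% to 4.99% and from 2.26% to 3.85%. Amy2b, pancreatic amylase, varied more than 4-fold within each genotype, at 0.0640%, 0.244% and 0.696% against 0.696%, 0.155% and 0.334%. Reg1 (chr6:78422711-78428667, plus strand), a secreted lectin of acinar cells, took 4.32%, 4.71% and 6.52% against 3.52%, 4.96% and 2.53%, and its log2 fold change was 0.12 with TMM factors and -0.31 with RLE factors. For these lipases and for amylase the spread within a genotype was larger than the difference between the means.

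By list, the 20 tested proteases included 4 that passed the thresholds of the study in the upward direction (among them Ctrl, Cpb1 and Klk1) and 0 in the downward direction, where 2.13% and 1.11% of all tested genes did. At 100 CPM or more 27 of all 335 genes passed upward and 0 downward, so the absence of lower calls was not particular to the proteases. Among 5 tested lipases 1 did (Pnliprp2), among 15 granule, inhibitor and secretory pathway genes 1 (Gp2), and among 3 amylase and nuclease genes 0. Of 6 Reg genes Reg3g passed downward, with 9 counts in wild-type library 3 and none elsewhere. With RLE factors the log2 fold changes of Ctrl, Cpb1, Klk1, Pnliprp2 and Gp2 were 0.55, 0.69, 0.73, 0.62 and 0.76, and with library totals 0.41, 0.58, 0.62, 0.50 and 0.66, so none of these 5 kept a 2-fold change. The median log2 fold change of the 18 proteases with at least 100 CPM was 0.60 with TMM factors, 0.14 with RLE factors and 0.03 with library totals, beside 0.51, 0.04 and -0.07 for all 335 genes at that level.

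**Figure D4:**
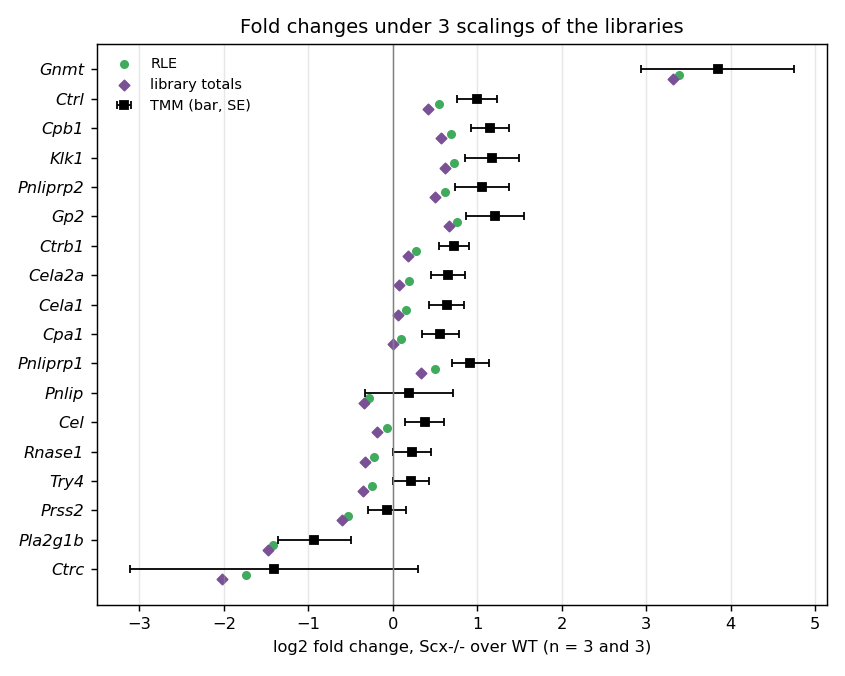
Log2 fold change (Scx-/- over wild-type, x axis, n = 3 and 3) of 18 genes (y axis) with TMM factors (squares, with the standard error), RLE factors (circles) and library totals (diamonds). Moving from TMM to totals shifts the abundant genes left, so that Cpa1, Pnlip, Cel, Rnase1 and Try4 cross 0 and Cpb1 falls from 1.15 to 0.58.

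The transcription factors of acinar cells were counted less often. PTF1 is the complex that drives acinar enzyme genes, built from Ptf1a, an E protein and Rbpjl, and it reads an E-box together with a TC-box. Rbpjl had 1, 0 and 36 counts in wild-type and 23, 100 and 85 in Scx-/- libraries, and Ptf1a had 27 counts in wild-type library 3, 1 in Scx-/- library 1 and none elsewhere. Bhlha15 (Mist1), which shapes the secretory apparatus, had 22, 6 and 3 counts against 71, 55 and 110, or 157, 59.7 and 28.5 against 162, 165 and 221 CPM. Xbp1, the unfolded protein response factor needed for the acinar endoplasmic reticulum, was at 150, 129 and 133 CPM against 166, 285 and 295 CPM. Neither overlapped between genotypes, and 7.46% of all 335 genes with at least 100 CPM were higher without overlap. Bhlha15 had a wild-type mean of 81.7 CPM and reached that level through its Scx-/- mean of 182 CPM. The log2 fold changes of Bhlha15 and Xbp1 were 1.62 and 1.43, with adjusted p-values of 0.614 in edgeR's test. With RLE factors these fold changes were 1.18 and 0.98, and with library totals 1.14 and 0.85. Of the 10 tested factors only Ptf1a passed the thresholds of the study, downward, on the counts of 1 library. Of all tested genes 2.13% passed upward and 1.11% downward.

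Promoter sequences of 4 enzymes are shown to place these genes: Ctrb1 as the most abundant, Cela1 as the one that set Scx-/- library 2 apart, Cpb1 as the gene that passed the test and Prss2 as an abundant enzyme that was lower relative to the rest. Each is the stretch of 250 bases before the RefSeq start on GRCm38.p6, written along the strand of the gene. Capitals mark TTTCCC or its reverse complement GGGAAA, the core of a TC-box, and CACCTG or its reverse complement CAGGTG, an E-box.
Ctrb1 (chr8:111691011-111691260, minus strand): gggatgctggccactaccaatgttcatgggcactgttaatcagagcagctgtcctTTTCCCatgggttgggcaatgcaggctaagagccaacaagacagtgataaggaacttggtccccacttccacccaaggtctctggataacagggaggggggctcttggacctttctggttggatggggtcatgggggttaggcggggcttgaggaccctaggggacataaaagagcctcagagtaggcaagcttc
Cela1 (chr15:100687921-100688170, minus strand): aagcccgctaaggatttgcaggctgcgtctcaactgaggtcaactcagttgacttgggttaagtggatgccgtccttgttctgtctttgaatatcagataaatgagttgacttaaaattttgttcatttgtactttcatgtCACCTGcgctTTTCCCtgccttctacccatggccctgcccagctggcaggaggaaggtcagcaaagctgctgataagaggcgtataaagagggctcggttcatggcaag
Cpb1 (chr3:20275734-20275983, minus strand): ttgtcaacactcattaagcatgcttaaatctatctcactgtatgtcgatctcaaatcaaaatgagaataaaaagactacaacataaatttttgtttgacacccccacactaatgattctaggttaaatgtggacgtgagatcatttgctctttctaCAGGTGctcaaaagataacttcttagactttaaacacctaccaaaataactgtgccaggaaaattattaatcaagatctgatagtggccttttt
Prss2 (chr6:41521526-41521775, plus strand): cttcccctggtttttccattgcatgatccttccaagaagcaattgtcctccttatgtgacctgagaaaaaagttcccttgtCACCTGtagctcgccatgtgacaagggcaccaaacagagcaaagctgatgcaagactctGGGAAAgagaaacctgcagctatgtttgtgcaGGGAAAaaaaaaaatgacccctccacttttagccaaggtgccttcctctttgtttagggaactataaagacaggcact
Cela1 and Prss2 held both motifs, Ctrb1 held only TTTCCC and Cpb1 only CACCTG. Over all 32851 RefSeq promoters of the same length, 21.9% held TTTCCC, 17.2% CACCTG and 3.61% both. Of the 47 acinar genes with a promoter in the RefSeq table, 15 (31.9%) held TTTCCC and 27 (57.4%) held CACCTG, beside 24.4% and 19.4% of 27025 genes. These are matches of letters only.

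Outside the acinar lists, Gnmt was the gene higher in Scx-/- that the naming rule picked, and it reached the minimum of 100 CPM through the Scx-/- libraries alone, so its lack of overlap is a description. Gnmt (chr17:46725664-46729168, minus strand), glycine N-methyltransferase, regulates S-adenosylmethionine and is made in liver and exocrine pancreas. It had 6, 3 and 1 counts in the wild-type and 80, 94 and 190 in the Scx-/- libraries, or 42.8, 29.9 and 9.50 against 182, 282 and 381 CPM. The genotypes did not overlap, and the log2 fold change was 3.85 ± 0.90 (SE) with an adjusted p of 0.0776 in edgeR's test, which passed when wild-type library 1 or 2 was left out (0.00500 and 0.0296) and otherwise ranged from 0.0957 to 0.998 over the alternatives. Albumin (Alb), a liver gene, had 67, 22 and 58 counts against 116, 59 and 782. Relative to the library total it was high in Scx-/- library 3, where Gnmt was also highest, but not in Scx-/- library 1 or 2. Its part in the result was not tested. No lower gene that passed the thresholds of the study had a mean of 100 CPM over the 6 libraries. Tspan5 and Brms1 reached that level only in the wild-type mean, at 122 and 108 CPM, and were therefore bound to be lower in Scx-/-. Tspan5, a tetraspanin, had 32, 12 and 2 counts against 0, 1 and 0, and Brms1, a component of a histone deacetylase complex, had 8, 20 and 7 against 0, 0 and 2. Their log2 fold changes of -6.13 and -5.22 both had an adjusted p of 0.614 in edgeR's test.

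Some genes were counted in all Scx-/- libraries and in no wild-type library. Sostdc1, a secreted antagonist of BMP and Wnt signalling, had 28, 30 and 59 counts and was at least 10.6-fold higher than the level of 3 counts in the pooled wild-type libraries. Slc39a11, a zinc transporter, had 33, 37 and 28 counts (at least 8.89-fold higher), and Bcl9l, a cofactor of beta-catenin, had 28, 25 and 43 (at least 8.71-fold higher). These genes were picked after their values were seen, for having no count in wild-type libraries, so their direction is not a result. The folds allow for counting error only. None of these genes had an adjusted p under 0.05 in edgeR's test. In all, 4694 tested genes had no count in any wild-type library and 798 none in any Scx-/- library, with totals 3.68 times as high in Scx-/-, so an absence from the wild-type libraries is common at these depths.

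Some genes that mark other tissues differed from the acinar genes in that their raw counts did not follow the library total. Gkn1, gastrokine 1 of the stomach surface, had 39, 39 and 25 counts in the wild-type and 43, 25 and 27 in the Scx-/- libraries. Acta1, skeletal muscle actin, had 41, 57 and 40 against 74, 36 and 61, and Tff1, a stomach trefoil peptide, had 45, 40 and 21 against 60, 38 and 47. As the totals differed by a factor of 3.68 on average, in CPM each of these was lower in all Scx-/- libraries, with Gkn1 at 278, 388 and 238 against 97.9, 74.9 and 54.2 CPM. Of the 4 stomach genes with at least 100 CPM, 3 were lower without overlap, where 8.06% of all 335 genes at that level were. The other, the trefoil peptide Tff2, had more counts, which followed the total, at 537, 272 and 486 against 1447, 984 and 1549, and it overlapped in CPM. Gkn1 and Tff1 were abundant in the 6 stomach-labelled libraries, at 52646 ± 10061 and 60252 ± 10874 CPM (SD, n = 6), as was Acta1 in the 6 muscle-labelled libraries, at 89877 ± 11707 CPM. The samples were pooled by barcode, and whether reads of other samples entered these counts was not tested.

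Collagen genes, the class for which Scx is best known as a regulator, included 1 gene with such flat counts. Col1a1, the main chain of type I collagen, had 69, 30 and 80 counts in wild-type and 72, 59 and 93 in Scx-/- libraries. In CPM these were 492, 299 and 760 against 164, 177 and 187, without overlap and lower in Scx-/-, with a log2 fold change of -0.94 ± 0.64 (SE) and an adjusted p of 0.614 in edgeR's test. Col1a1 was at 48946 ± 6751 CPM (SD, n = 6) in the bone-labelled libraries. The part of the flat counts of stomach, muscle and bone genes in the lower CPM of Col1a1 was not tested. Col1a2, the partner chain, overlapped at 55, 10 and 13 against 153, 42 and 67 counts, and decorin (Dcn), a collagen-binding proteoglycan, had 8, 30 and 36 against 176, 60 and 109. Of 14 tested genes of the Scx and tendon list and 22 of the fibroblast and collagen list, 0 passed the thresholds of the study, where 2.13% of all tested genes passed upward and 1.11% downward, so a count of 0 is near the background in lists of this size. Tenomodulin (Tnmd), a target of Scx in tendon, had no count, and fibromodulin (Fmod) had 0, 1 and 0 against 3, 1 and 20.

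**Figure D5:**
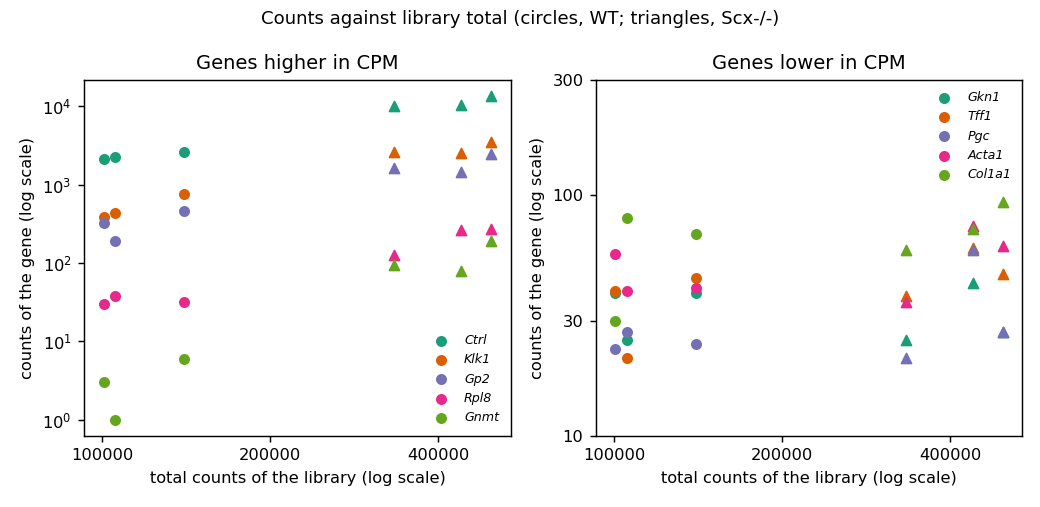
Counts of 5 genes higher in CPM in Scx-/- libraries (left) and 5 genes lower in CPM (right) against the total counts of the library, both on log scales, circles for wild-type and triangles for Scx-/-. Counts of Ctrl, Klk1, Gp2, Rpl8 and Gnmt are greater in the deeper Scx-/- libraries, while those of Gkn1, Tff1, Pgc, Acta1 and Col1a1 stay between 21 and 93 in all 6.

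The hormone genes of pancreatic islets varied by library. Ins2, insulin, was counted in all 6. It had 339, 112 and 156 counts in the wild-type and 855, 88 and 705 in the Scx-/- libraries, with a log2 fold change of 0.04 that was -0.44 with RLE factors. The 23 islet genes together took 0.337%, 0.191% and 0.252% of counts against 0.306%, 0.0468% and 0.230%, so that Scx-/- library 2 was the lowest. Ppy (chr11:102099930-102101319, minus strand), pancreatic polypeptide, had 130 counts in Scx-/- library 1 and none in the other 5. Its neighbour Pyy (chr11:102106676-102107832, minus strand), peptide YY, had 113 in the same library and 3 in Scx-/- library 3. Both passed the thresholds of the study on the counts of 1 library, with adjusted p-values of 0.563 and 0.614 in edgeR's test. No other of the 19 tested islet genes passed, where 2.13% of all tested genes passed upward and 1.11% downward. Glucagon (Gcg) had 30, 0 and 6 counts against 0, 11 and 112, and somatostatin (Sst) 1, 15 and 0 against 26, 0 and 13. In CPM, Ins2 was highest in wild-type library 1 (2419 CPM), Sst in wild-type library 2 (149 CPM) and Gcg in Scx-/- library 3 (225 CPM), so the hormones did not share 1 library.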

How the data were processed

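Counts per gene were read for the 6 adipose-labelled samples. The deposited values are counts: the authors aligned reads (Bowtie2 defaults, mm10) and assigned them to genes using HTSeq, with no normalization. The sources used here do not give versions, annotation, strand setting or molecular identifiers, so reads of overlapping or antisense genes cannot be told apart, and intervals cover counting error only. All columns matched a sample by name.

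Genes with at least 1 count were tested with edgeR 4.0.16 (R 4.3.3; TMM factors, quasi-likelihood test, Benjamini-Hochberg adjustment). An exact permutation test of 3 against 3 libraries cannot go below 0.1. CPM used library totals of 100469 to 498158 counts. A difference without overlap has all 3 libraries of 1 genotype above all 3 of the other. Alternatives were RLE factors, library totals, filterByExpr (1003 genes), DESeq2 1.42.0, the replicate number as a block (numbers did not pair the samples), thinning, removal of acinar genes and leaving out each library. Python packages were numpy 2.4.6, pandas 2.3.3, scipy 1.17.1 and matplotlib 3.10.9. Gene coordinates came from a GRCm38 annotation.

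The script was tested on simulated counts with 200 genes changed. It called 0 of 10793 unchanged genes at the adjusted p and 273 at the thresholds of the study. The samples and the 37 gene lists were chosen with earlier results of these data known. Named genes were Scx, genes with an adjusted p under 0.05, up to 5 per direction of smallest p past the thresholds of the study with at least 100 CPM and no overlap, the 10 genes of highest mean CPM and, for each list, its top 3 by mean CPM. Pnliprp2, Pla2g1b, Ctrc, Try5, Try10, Amy2b, Sostdc1, Slc39a11, Bcl9l and the genes given as counts in single libraries were named after their values were seen, and so were the share of acinar counts and the limit of 100 CPM for overlap. Some genes the rules cover are not reported here.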

Additional observations from a re-analysis of the deposited data

How the results depend on the processing

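Cpb1 was the 1 gene with an adjusted p under 0.05, and the number was 0 with RLE factors, library totals, filterByExpr, DESeq2, libraries thinned to 100469 counts and, as Cpb1 is itself an acinar gene, after removal of acinar genes. Leaving out 1 library gave 0 to 11 genes: 11 without wild-type library 1 (Cpb1, Ctrb1, Ctrl, Gnmt, Gp2, Klk1, Pnliprp1 and 2210010C04Rik among them), 4 without wild-type library 3, 2 without wild-type library 2 or Scx-/- library 1, 1 (Ctrc instead of Cpb1) without Scx-/- library 2 and 0 without Scx-/- library 3. At the thresholds of the study the 356 genes became 47 with filterByExpr and 165 after thinning, and 104 to 311 without 1 library (128, 236 and 104 without Scx-/- libraries 1, 2 and 3). Members of the gene lists passing them numbered 27, against 10 with filterByExpr, 13 with DESeq2 and 15 to 41 without 1 library (41 without wild-type library 1, 15 without Scx-/- library 3). With the replicate number as a block, 0 genes had an adjusted p under 0.05, 77 passed the thresholds of the study and 17 list members did, but the deviations of same-numbered libraries correlated at only 0.0895, 0.0550 and -0.132, so the libraries share only a number. The mean shares of acinar genes stayed at 73.7% to 79.1% (wild-type) and 74.3% to 77.9% (Scx-/-) without 1 library, and those of adipocyte genes at 0.0524% to 0.0718% and 0.0319% to 0.0415%.

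Directions turned for 5 of the 20 genes followed. Try4 (0.22) was -0.24 with RLE and DESeq2, -0.35 with totals, -0.14 with filterByExpr and -0.059 after thinning, and Rnase1 (0.23) was -0.22, -0.22, -0.33, -0.12 and -0.027 in those settings. Reg1 (0.12) was -0.31, -0.31, -0.47, -0.22 and -0.16 in those settings and -0.15 without Scx-/- library 2, within -0.15 to 0.29 without any 1 library. Cpa1 was -0.0027 with totals. Prss2 (-0.07) was 0.011 with the block, 0.23 without wild-type library 1 and 0.033 without Scx-/- library 2. For Try4, Rnase1 and Reg1 those settings differ in scaling, filter or depth. The cause of the other turns was not tested. In simulated counts, 16 of 50 genes of at least 100 CPM changed 16-fold passed the adjusted p, and 0 of 50 changed 4-fold. Cpb1, far above 100 CPM, passed at a smaller change.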

Other observations

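Lists of the secretory machinery that surrounds the acinar enzymes had few members past the thresholds of the study, which 2.13% of all tested genes passed upward and 1.11% downward. Of 27 tested genes of endoplasmic reticulum chaperones and the unfolded protein response, 1 passed them (Atf6, with 0, 0 and 0 counts in wild-type and 2, 17 and 29 in Scx-/- libraries), and the 15 with at least 100 CPM had a median log2 fold change of 0.52, beside 0.51 for all 335 genes at that level. Hspa5, the main chaperone of the endoplasmic reticulum, was at 500, 408 and 694 CPM against 899, 324 and 456 CPM, with overlap. Of 37 tested translocon and vesicle transport genes 1 passed (Copa, a COPI coat subunit, with 11, 3 and 0 counts against 78, 30 and 62). That list took 0.433% to 0.529% of counts in wild-type and 0.321% to 0.415% in Scx-/- libraries, lower without overlap, as were 4 of the 37 lists in all (the others were the amylases and nuclease, stomach and skeletal muscle lists), while 0 were higher, and its 16 genes with at least 100 CPM had a median log2 fold change of 0.16, beside 0.51. Of 63 cytosolic ribosomal protein genes 3 passed (Rpl3, Rpl5 and Rpl8). Rpl3 and Rpl5 had no count in any wild-type library, against 49, 4 and 1 and 7, 7 and 36 in the deeper Scx-/- libraries. Rpl8 had 32, 30 and 38 counts against 266, 126 and 273 and did not overlap in CPM. Of all 335 genes with at least 100 CPM, 7.46% were higher without overlap. The log2 fold change of Rpl8 was 1.39 with TMM factors, 0.91 with RLE factors and 0.79 with library totals. In the ATF4 and amino acid response list 0 of 20 passed. Of 11 metallothionein and glucocorticoid response genes Mt1, Mt2 and Txnip passed, with Mt1, a metal-binding protein, at 1434, 2538 and 3363 against 1241, 3899 and 4141 CPM, so that Scx-/- library 1 lay below all wild-type libraries. The adjusted p of each gene named in this paragraph that passed those thresholds was 0.614 in edgeR's test.

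Some genes of other cell types were high in single libraries, and others varied between libraries of a genotype. Cd74, the invariant chain of MHC class II, had 50 counts in Scx-/- library 1, 3 in library 3 and none elsewhere, and Cd3e, a T cell receptor subunit, had 41 in Scx-/- library 1 alone, the library with Ppy and Pyy. Fgb, a liver fibrinogen chain, had 80 counts in Scx-/- library 3 and at most 4 in any other. Globin (Hbb-b1) had 540, 54 and 707 counts in wild-type and 3033, 383 and 1628 in Scx-/- libraries, lowest in replicate 2 of both genotypes. Xist, the RNA of the inactive X chromosome, had 60, 0 and 47 counts in wild-type and 117, 0 and 0 in Scx-/- libraries. Y-linked genes summed to 1, 2 and 0 counts in wild-type and 2, 17 and 26 in Scx-/- libraries. The sex of the mice is not in the labels and may differ between the genotypes, and its part in the results was not tested.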
